A study of Mus musculus with 16 samples.

Results

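Wide domains of H3K27me3 in wild-type (WT) mouse B cells were described through 4 deposited lists of broad peaks. The domains were chosen by width alone: every peak of the WT DMSO list on chromosomes 1 to 19 that spans at least 10000 bp. This rule gave 1249 domains, out of 39233 WT DMSO peaks on these chromosomes, 39495 WT DMSO peaks in all and 112048 peaks in the 4 lists together. Splenic B cells of C57BL/6 mice, 6 to 8 weeks old, had been purified with CD43 microbeads and cultured with BAFF and IL-4, each at 2 ng/mL. They were exposed for 48 hours to the solvent DMSO or to 1 µM GSK343, an inhibitor of EZH2. The mice were WT or carried the genotype given as Ifih1/Rigi/cGAS triple mutant, whose 3 genes encode cytosolic sensors of foreign or misplaced nucleic acids. Each of the 4 combinations of genotype and treatment had 2 chromatin immunoprecipitation (ChIP) samples and 2 inputs, and each is represented by a single peak list. The labels do not give the nature of the mutant alleles or say whether the samples of a group came from separate animals.

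H3K27me3 is the trimethylated form of lysine 27 of histone H3. It is written by Polycomb repressive complex 2, whose catalytic subunit is EZH2 or EZH1, and it marks genes that are kept silent. In mammals the complex is recruited mainly to CpG-rich DNA that is not transcribed, typically at the start sites of genes for developmental regulators, and the mark can spread from such sites over long stretches of chromatin. In mature B cells these are largely the regulators of other tissues.

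Domain bases that also lay in a peak of another list are called bases left, and each such peak, clipped to the domain, is a piece. A base outside a called peak is not shown to lack the mark. Because there is 1 list per group, no difference between lists could be tested, and the read depth behind the lists is unknown.

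The promoters below span 250 bases before a transcription start to 50 bases after it, read 5′ to 3′ on the gene's own strand, and are RefSeq sequences of build GRCm38. Capitals mark the dinucleotide CG, the DNA feature most often tied to H3K27me3, which is its own reverse complement. At least 1 CG occurs in 95.6% of all 20085 coding promoters of the table on chromosomes 1 to 19, where the median is 14 per promoter. These starts were picked after their values were seen. Skor1 and Neurod2 lie in the domains of at least 20 kb with most bases left in WT GSK343, and Sox30 and Ky in those with fewest. Hoxa5 is printed because its start, close to the edge of its domain, lay in no GSK343 piece although the domain kept most of its bases. Svs6 is printed because its domain of 11.7 kb had no GSK343 piece at all.
Skor1 (chr9:63148912-63149211, minus strand): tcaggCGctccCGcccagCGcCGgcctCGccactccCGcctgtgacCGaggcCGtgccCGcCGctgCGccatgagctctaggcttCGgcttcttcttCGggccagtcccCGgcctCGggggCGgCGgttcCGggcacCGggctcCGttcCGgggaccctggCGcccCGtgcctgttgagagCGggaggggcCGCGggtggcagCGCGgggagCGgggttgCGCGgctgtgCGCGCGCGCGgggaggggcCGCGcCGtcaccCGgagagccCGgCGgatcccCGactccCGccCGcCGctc
Neurod2 (chr11:98329596-98329895, minus strand): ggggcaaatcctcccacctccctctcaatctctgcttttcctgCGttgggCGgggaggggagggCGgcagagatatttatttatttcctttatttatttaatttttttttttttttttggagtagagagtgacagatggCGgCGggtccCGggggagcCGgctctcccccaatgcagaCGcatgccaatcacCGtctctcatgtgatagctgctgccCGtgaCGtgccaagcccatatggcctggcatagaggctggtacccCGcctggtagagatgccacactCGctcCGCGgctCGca
Sox30 (chr11:45980060-45980359, plus strand): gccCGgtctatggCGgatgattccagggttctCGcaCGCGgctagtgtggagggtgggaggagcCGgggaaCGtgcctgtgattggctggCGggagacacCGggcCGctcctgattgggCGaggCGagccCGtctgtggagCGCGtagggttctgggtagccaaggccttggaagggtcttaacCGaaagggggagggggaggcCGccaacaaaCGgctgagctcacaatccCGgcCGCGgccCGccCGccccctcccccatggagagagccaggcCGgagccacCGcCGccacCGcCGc
Ky (chr9:102505888-102506187, plus strand): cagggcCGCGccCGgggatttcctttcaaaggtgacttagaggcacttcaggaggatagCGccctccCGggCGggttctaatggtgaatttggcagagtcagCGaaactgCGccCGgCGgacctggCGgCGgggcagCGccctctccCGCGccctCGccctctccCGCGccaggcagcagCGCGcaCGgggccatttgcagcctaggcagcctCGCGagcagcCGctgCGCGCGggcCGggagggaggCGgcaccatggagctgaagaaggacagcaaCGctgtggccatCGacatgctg
Hoxa5 (chr6:52204538-52204837, minus strand): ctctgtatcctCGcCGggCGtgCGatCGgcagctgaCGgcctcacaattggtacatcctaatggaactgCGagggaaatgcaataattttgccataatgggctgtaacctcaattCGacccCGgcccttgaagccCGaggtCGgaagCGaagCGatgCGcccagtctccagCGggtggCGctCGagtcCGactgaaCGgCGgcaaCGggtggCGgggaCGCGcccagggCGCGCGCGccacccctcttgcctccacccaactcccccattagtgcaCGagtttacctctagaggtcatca
Svs6 (chr2:164316501-164316800, plus strand): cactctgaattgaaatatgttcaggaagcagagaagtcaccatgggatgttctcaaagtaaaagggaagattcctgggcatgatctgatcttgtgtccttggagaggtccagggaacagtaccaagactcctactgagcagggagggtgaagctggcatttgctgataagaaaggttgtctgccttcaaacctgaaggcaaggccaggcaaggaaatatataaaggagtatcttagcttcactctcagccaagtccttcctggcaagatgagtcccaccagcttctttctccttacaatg

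The promoter of Skor1, a transcriptional corepressor gene, holds 46 CG, a number reached by 2.19% of the coding promoters of the table. The promoter of Neurod2, a neuronal basic helix-loop-helix factor, holds 16. Those of Sox30, a transcription factor gene of the male germ line, and Ky, a muscle gene, hold 28 and 31. The Hoxa5 promoter holds 29, whereas that of Svs6, which encodes a seminal vesicle secretory protein, holds 0.

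Of the 919 miRNA hairpins examined, 40 lay inside domains, and 16 of these share a seed with another of the 40. The seed, bases 2 to 8 of the mature strand, is shown in capitals. The 919 are not every annotated hairpin: Mir615, annotated in the domain of the Hoxc genes, is not among the 40. The sequences are RefSeq mature miRNAs, chosen after their values were seen because every hairpin, or all but 1, with that seed among the 919 hairpins of the table lay inside a domain.
mmu-miR-9-5p: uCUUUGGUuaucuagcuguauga
mmu-miR-196a-5p: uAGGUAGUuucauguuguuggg
mmu-miR-196b-5p: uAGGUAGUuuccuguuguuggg
mmu-miR-10a-5p: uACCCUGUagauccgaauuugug
mmu-miR-10b-5p: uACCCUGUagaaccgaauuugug
mmu-miR-132-3p: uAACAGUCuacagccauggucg
mmu-miR-212-3p: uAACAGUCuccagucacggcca
mmu-miR-7a-5p: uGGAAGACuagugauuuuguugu
mmu-miR-7b-5p: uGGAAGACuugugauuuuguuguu

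The domains made up 3.18% of the WT DMSO peaks on chromosomes 1 to 19 but 26.0% of the bases of those peaks, 21.8 Mb. Their width ran from 10002 to 184459 bp with a median of 14132 bp, and 303 spanned at least 20 kb, 18 of them at least 50 kb. The peak fold as deposited by the authors, a linear ratio to background, ran from 2.4 to 5.05 in the domains with a median of 3.59. Just inside the threshold lay a peak of 10002 bp over tRNA genes on chromosome 3, 1 of 10004 bp in Farp1 and 1 of 10005 bp at Nipal1. Just outside it lay peaks of 9994 bp at Kcnj5, 9992 bp at Gm13420 and 9980 bp at B4galnt3. Bases left in WT GSK343 were 17.6%, 18.8% and 0% in the first 3 peaks and 62.8%, 60.1% and 39.9% in the last 3.

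The labelled cell type was compared with marker genes of 4 lineages. Of 15 genes active in B cells, only Ciita, the class II transactivator, carried a WT DMSO peak, over 1.65% of its length. None of the 15 touched a domain, and Cd79a, Pax5 and Ebf1 had no peak in any of the 4 lists. Of 8 T cell genes, 6 carried a WT DMSO peak, and Cd4, Bcl11b and Gata3 lay partly in a domain. Of 7 myeloid and NK cell genes, 2 carried a peak, and Cd14 lay in a domain. The others, Itgam, Csf1r, Lyz2, Ncr1 and Klrb1c, also had no peak in any of the 4 lists. Of 4 erythroid genes, 2 carried a peak and none lay in a domain. Among these, Gata1 lies on chromosome X, where no domain was taken. The share of all coding genes that carry a WT DMSO peak was not computed. Without it the marker counts cannot be read as unusual, and they do not settle the cell type.

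The domains overlapped 1198 of 20665 coding genes, or 5.80%, and held 384 of them whole. A single coding gene was touched by 841 domains, 2 by 160 and 3 or more by 31, with at most 9 in a domain. The other 217 domains touched no coding gene, and of these 103 touched another annotated gene and 114 none. The median length of the overlapped coding genes was 17.9 kb, against 17.5 kb for all coding genes.

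Families of developmental transcription factors and the Wnt ligands had the largest shares of members inside domains. Of the 39 Hox genes, which specify position along the body axis, 37 lay in a domain, all but Hoxa4 and Hoxd1. Other homeobox genes, which pattern organs and neurons, had 99 of 120 members in domains, or 82.5%. The share was 80% for T-box genes (12 of 15) and for Gata genes (4 of 5), 77.8% for Pax genes (7 of 9) and 71.4% for Zic and Gli genes (5 of 7). Forkhead genes had 22 of 41 members in domains, Sox genes 9 of 18 and tissue-specific basic helix-loop-helix genes 18 of 41. Each of these shares stood above the 5.80% of all coding genes.

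Among secreted signals, 13 of 19 Wnt ligand genes (68.4%) lay in domains, 6 of 20 Fgf genes and 4 of 20 Bmp and Gdf genes. Among genes of neuronal membranes, those inside were 12 of 92 potassium channel genes, 6 of 46 glutamate, GABA and glycine receptor genes and 7 of 47 axon guidance genes. Of 10 Cdkn genes, which encode cyclin-dependent kinase inhibitors, Cdkn2a and Cdkn2b lay in domains. Solute carrier genes were at the background, with 19 of 324 or 5.86%, and the Klf family had 1 of 16. Large tandem families were nearly absent: 2 of 1104 olfactory receptor genes, and none of 352 vomeronasal receptor or 57 clustered protocadherin genes. Of the genes named Zfp, a mixed set taken by symbol, 7 of 388 lay in domains. Of the immune signals, 2 of 70 interleukin and chemokine genes (Il17d and Cxcl16, 2.86%) and 1 of 51 of their receptors (Il1r1, 1.96%) lay in domains, and 0 of 9 Irf genes, counts too small to set apart from the 5.80% of all coding genes.

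**Figure D1:**
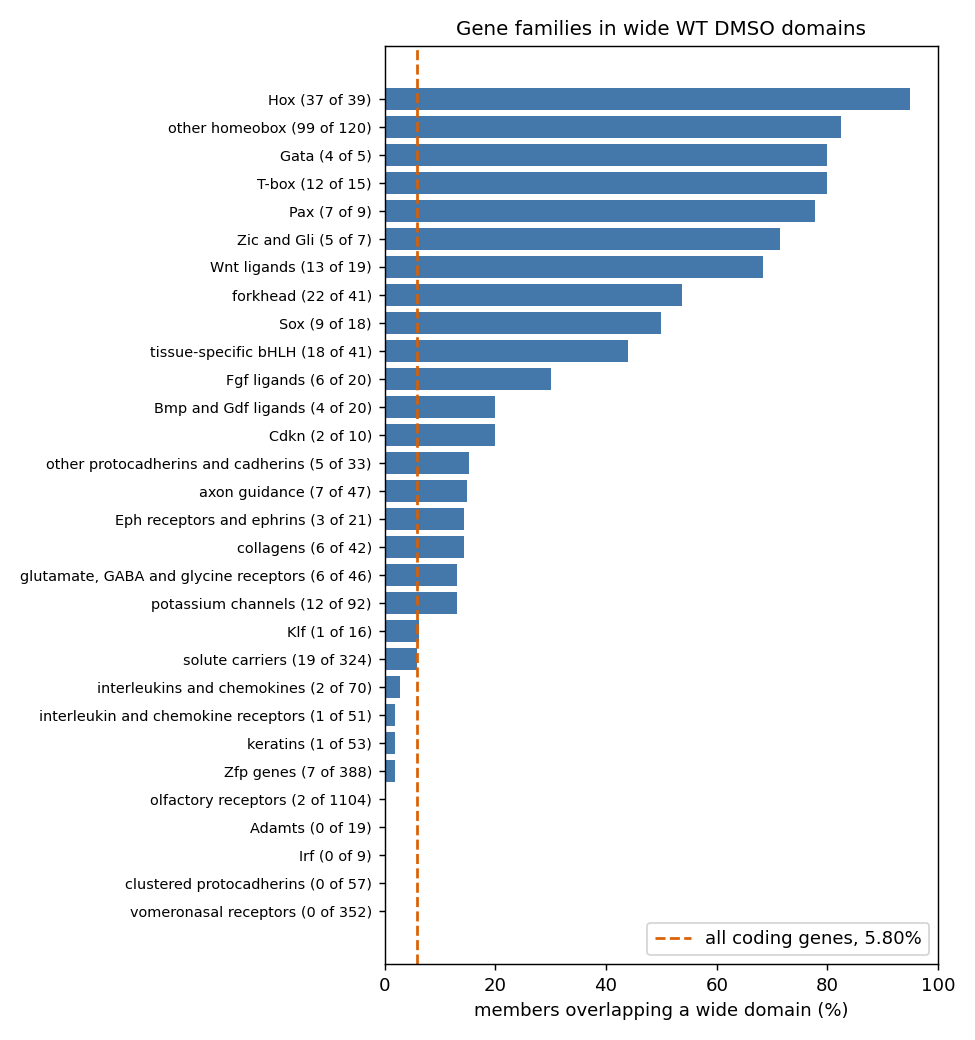
Share of the members of each gene family that overlap a wide WT DMSO domain (bars, in %), with members inside and in all given in parentheses; the dashed line is the share over all coding genes, 5.80%. Hox genes head the list at 94.9% and vomeronasal receptor genes stand at 0.

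Peaks of the other lists, with no further threshold, reached most domains. All but 16 domains held a WT GSK343 piece, all but 15 a mutant DMSO piece and all but 47 a mutant GSK343 piece. These GSK343 counts rose when weak peaks were left out: at a q-value of at most 0.01, 162 domains had no piece in WT GSK343 and 174 none in mutant GSK343. At a −log10 p-value of at least 5 these were 237 and 212, with the order of the lists turned, and 36 in mutant DMSO. At a fold of at least 3 they were 159, 218 and 98. Over all WT DMSO peaks on chromosomes 1 to 19, the share overlapped was 19.7% by WT GSK343, 79.5% by mutant DMSO and 16.5% by mutant GSK343 peaks. In peaks under 5000 bp, 11.8% were overlapped by WT GSK343 (95% Wilson interval 11.5 to 12.2), and in peaks of 10 to under 20 kb 98.3% (97.3 to 99). A wider peak holds more bases that another peak can touch, so the comparison was also made in bases.

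Mutant DMSO peaks held 97.1% of the domain bases (21.2 Mb), WT GSK343 peaks 46.2% (10.1 Mb) and mutant GSK343 peaks 39.0% (8.51 Mb). The peaks that gave these pieces had a mean fold of 3.82, 3.12 and 3.0 in their own lists, in the same order. WT DMSO peaks under 5000 bp kept 9.45% of their bases in WT GSK343, 6.92% in mutant GSK343 and 77.6% in mutant DMSO, and peaks of 5000 to under 10000 bp kept 31.7%, 26.2% and 96.1%. Within the domains, the share left in WT GSK343 was 40.9% at 10 to 20 kb, 52.2% at 20 to 50 kb and 60.5% in the 18 domains of at least 50 kb. In mutant GSK343 the same classes kept 34.3%, 44.6% and 49.9%. Both GSK343 lists thus showed a higher share of bases left in each wider class. From the narrowest class to the widest, the median WT DMSO fold was 2.46, 3.26, 3.55, 3.77 and 3.72. Narrower peaks also have more of their bases near an edge, so a share of bases still depends on width. The part of fold or of edges in this order was not tested. The domains also took up 48.0% of all WT GSK343 peak bases on chromosomes 1 to 19 and 50.6% of those of mutant GSK343, against 16.1% in mutant DMSO.

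Domains differed widely from each other under GSK343. The share left per domain had a median of 43.8% in WT GSK343, with quartiles of 29.8% and 56.2% and a highest value of 94.4%. In mutant GSK343 the median was 36.3%, the quartiles 21.7% and 50.3% and the highest value 93.9%. No domain was covered in full in either GSK343 list, whereas 835 were in mutant DMSO. At least 50% of the bases were left in 460 domains in WT GSK343 and in 320 in mutant GSK343. The share moved with the fold of the domain in WT DMSO: the 168 domains with a fold under 3 kept 16.7% in WT GSK343 and 8.95% in mutant GSK343, and the 223 with a fold of 4 and over kept 63.5% and 59.4%. Across the 1249 domains, Spearman's rho between WT DMSO fold and share left was 0.70 in WT GSK343 and 0.82 in mutant GSK343. With width it was 0.30 and 0.25. These are descriptions across domains, which share the libraries and are not replicates.

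**Figure D2:**
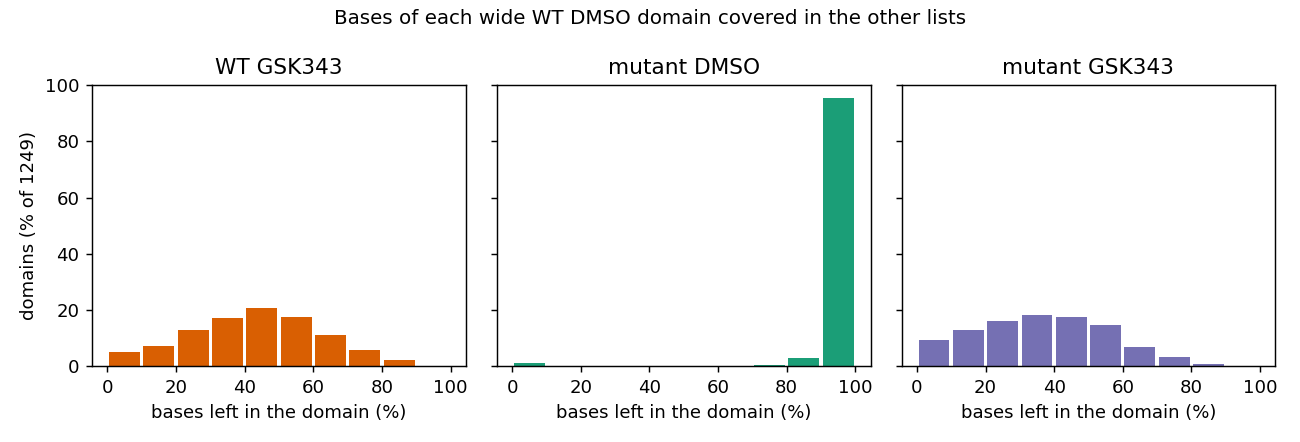
Distribution over the 1249 domains (y axis, % of domains) of the share of bases left in each of the other 3 lists (x axis, % of the bases of a domain, in steps of 10). The GSK343 lists spread around medians of 43.8% in WT and 36.3% in mutant, and nearly all mutant DMSO values stand at the right end.

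Under GSK343 most domains held 2 or more pieces, while in mutant DMSO 1132 of them held 1. There were 3580 pieces in WT GSK343 and 3951 in mutant GSK343, against 1345 in mutant DMSO, which gives a mean of 2.87, 3.16 and 1.08 per domain. A single piece lay in 250 domains in WT GSK343 and in 234 in mutant GSK343, and 2 pieces in 394 and 313. Domains with 3 or more pieces numbered 589 in WT GSK343 (47.2%) and 655 in mutant GSK343 (52.4%), and 8 in mutant DMSO. The means fell to between 1.29 and 1.56 in WT GSK343 and between 1.45 and 1.65 in mutant GSK343 when peaks of the other lists had to pass a q-value of at most 0.01, a −log10 p-value of at least 5 or a fold of at least 3. With the fold threshold the mutant mean, 1.45, was below the WT mean, 1.56. The median piece measured 1674 bp in WT GSK343 and 1252 bp in mutant GSK343, but 13203 bp in mutant DMSO. Pieces of at least 10000 bp numbered 121 in WT GSK343 and 67 in mutant GSK343. Summed over all domains, those with a single piece included, the longest piece of each held 64.3% of the bases left in WT GSK343 and 59.9% in mutant GSK343. The median gap between neighbouring pieces was 1522 bp in WT GSK343 and 1261 bp in mutant GSK343. Gaps under 1000 bp made up 12.7% of the gaps in WT GSK343 and 35.1% in mutant GSK343. The distance at which the caller joined neighbouring peaks is not given for either list. Numbers, lengths and gaps of pieces may therefore not be comparable between the genotypes, and this was not tested.

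The share left was lowest at the edges of the domains and rose inward. Within 1 kb of an edge, 12.7% of the bases were left in WT GSK343, 8.30% in mutant GSK343 and 93.0% in mutant DMSO. From 4 to 5 kb inside, the shares were 52.0%, 44.1% and 98.3%. In the 303 domains of at least 20 kb the share rose further inward, to 61.4% in WT GSK343 and 51.0% in mutant GSK343 at 8 to 9 kb from the edge. The edges are those of the WT DMSO list itself.

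**Figure D3:**
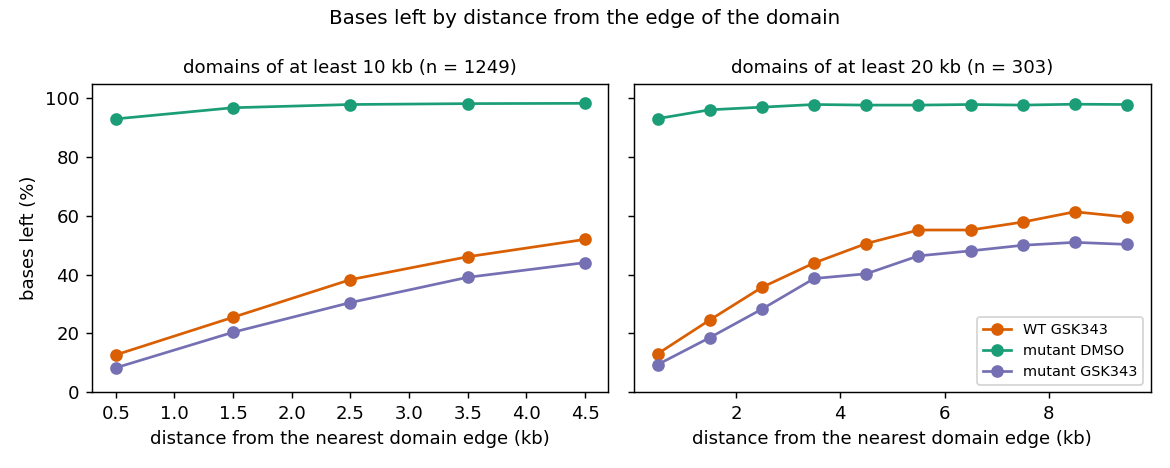
Share of bases left (y axis, %) by distance from the nearest edge of the domain (x axis, kb, in bins of 1 kb) for all 1249 domains and for the 303 of at least 20 kb. Both GSK343 lines climb from 12.7% and 8.30% at the edge to 52.0% and 44.1% at 4 to 5 kb, while mutant DMSO stays at 93.0% and above.

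Bases near the ends of coding genes were left most. Bases within 1 kb of either end of a coding gene made up 13.3% of the domains, and 73.9% of them were left in WT GSK343 and 66.8% in mutant GSK343. Elsewhere in coding genes 48.2% and 40.9% were left, and outside coding genes 36.6% and 29.5%. The share near gene ends was thus 2.02 times that outside genes in WT GSK343 and 2.27 times in mutant GSK343. In mutant DMSO the 3 shares were 97.8%, 97.1% and 97.0%. Because fewer bases were left near domain edges, the shares were also taken without the outer 2 kb on each side of a domain, an alternative added after seeing the data. There they were 78.3%, 56.5% and 44.1% in WT GSK343 and 71.6%, 48.4% and 36.0% in mutant GSK343. The longest piece of a domain touched the 1 kb window of a gene end in 62.6% of domains with a piece in WT GSK343 and in 61.7% in mutant GSK343. Over all pieces, 32.1% and 31.7% did, and 40.8% and 39.1% lay wholly outside coding genes. In mutant DMSO, whose pieces are longer and can touch more of these windows by their length alone, the longest piece did so in 74.6% of domains, and 69.4% of all pieces did.

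Gene starts lay in a GSK343 piece more often than the other ends of genes. Strand and start were available for 871 of the 1198 coding genes (72.7%), and 859 starts of 730 genes lay inside domains. Of these starts, 89.6% lay in a piece in WT GSK343 (Wilson interval 87.4 to 91.5), 83.7% in mutant GSK343 (81.1 to 86.0) and 98.0% in mutant DMSO (96.9 to 98.8). For 291 genes both ends lay inside domains: the start was in a piece for 90.4% and the other end for 56.7% in WT GSK343, and for 84.9% and 50.2% in mutant GSK343. In mutant DMSO both ends were nearly always covered, at 99% and 98.6%. Even in domains with under 25% of their bases left in WT GSK343, 50 of 72 starts (69.4%) lay in a WT GSK343 piece. The share was 88.6%, 93.8% and 96.6% in the next 3 classes of 25 percentage points. The same pieces define these classes, so a rise is built in. In mutant GSK343, which does not define them, 59.7%, 83.2%, 88.9% and 86.4% of starts lay in a piece, from the lowest class to the highest. In both GSK343 lists 688 starts were in a piece, and 58 starts (6.75%) of 55 genes were in neither.

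Starts in pieces had promoters with more CG. The median number of CG per promoter was 21 for starts in a WT GSK343 piece and 8 for starts in none, and 21 and 13 for mutant GSK343. These medians describe the 859 starts alone. As a check over the coding genes of the domains the comparison is void, because under 80% of those genes had a start in the table. Among the promoters printed above, Svs6, with 0 CG, had no piece, and the CG-rich Hoxa5 start also had none in either GSK343 list. The Hoxa5 start, at 52204587, lies close to the edge of its domain, at 52204490. Within 1 kb of an edge, 12.7% of the bases of all domains were left in WT GSK343 and 8.30% in mutant GSK343. The part of the edge in the missing Hoxa5 piece was not tested.

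Domains without a coding gene kept less. The 217 such domains kept 33.7% of their bases in WT GSK343 and 25.4% in mutant GSK343, against 48.5% and 41.5% in the 1032 domains with a coding gene. Their median width was 13.1 kb against 14.4 kb, and their median WT DMSO fold 3.09 against 3.68. The part of fold in this difference was not tested. Of the 16 domains with no WT GSK343 piece, 12 had no coding gene, as did 29 of the 47 with no mutant GSK343 piece. The 5 widest with no WT GSK343 piece were 11.8 to 13.7 kb wide. They lay at Gm46534 on chromosome 15, at Cpeb1, which encodes an mRNA polyadenylation factor, at Gm29976 on chromosome 7, and at Gm29593 and an unannotated stretch on chromosome 19. Mutant DMSO covered each of the 5 by 96.6% or more.

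Coding genes themselves mostly kept a piece. Of the 1198 genes, 1158 (96.7%) still lay under a piece inside the domain in WT GSK343, 1133 (94.6%) in mutant GSK343 and 1180 in mutant DMSO. An overlap of 1 bp was enough here. Among all domains only 1.28% had no piece in WT GSK343 and 3.76% in mutant GSK343, so these shares are not particular to genes. Genes held whole by a domain kept a median of 87.5% of their length in WT GSK343 and 80.5% in mutant GSK343. Of these 384 genes, 140 and 106 were still covered in full, and 2 and 6 had no piece. The families differed in how much they kept. Hox genes kept a median of 99.6% of the part in a domain in WT GSK343 and 81.5% in mutant GSK343, forkhead genes 94.1% and 89.4%, other homeobox genes 85.9% and 82.5% and tissue-specific basic helix-loop-helix genes 86.0% and 90.7%. Fgf genes kept 76.0% and 68.8%, and potassium channel genes 69.6% and 62.4%. Some transcription factor families kept less than these: Zic and Gli genes 63.7% and 57.5%, Pax genes 62.1% and 54.8%, and T-box genes 61.2% and 52.1%. Wnt genes kept 53.3% and 53.0%, collagen genes 49.9% and 43.1%, and glutamate, GABA and glycine receptor genes 48.4% and 40.3%. Over all 1198 genes the medians were 56.1% and 48.7%. The families also differed in how many of their members in domains were held whole. These were 33 of 37 Hox, 19 of 22 forkhead, 77 of 99 other homeobox and 16 of 18 tissue-specific basic helix-loop-helix genes. They were 3 of 5 Zic and Gli, 1 of 7 Pax, 5 of 12 T-box, 2 of 13 Wnt and 0 of 6 collagen genes. The part of this in the differences between families was not tested.

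Single genes showed the same range. Foxe1, a thyroid factor, Wnt1, a midbrain signal, Zic2, a factor of forebrain patterning, and Gdf7, a roof plate signal, were covered in full in both GSK343 lists. Hand2, a heart and limb factor, kept 83.2% in WT GSK343 and 83.8% in mutant GSK343. Gata3, the T cell and inner ear factor, kept 82.5% and 69.2% of its domain part. By contrast Slc2a4, the insulin-responsive glucose transporter, kept 14.6% and 20.4%, Bmp6 17.8% and 15.0% of the part in a domain, and Col16a1, a collagen gene, 22.5% and 6.30%. Cdkn2b, a cell cycle inhibitor gene, was covered in full in WT GSK343 and by 48.5% in mutant GSK343, and its neighbour Cdkn2a by 73.3% and 56.4%.

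The Hox clusters formed the 3 widest domains. The Hoxc domain, chromosome 15 from 102893449 to 103077907, held all 9 Hoxc genes and the noncoding RNA gene Hotair in 184 kb. It stayed 1 peak in mutant DMSO, which covered it by 100%, and was broken into 24 pieces with 68.7% left in WT GSK343 and 26 pieces with 64.9% left in mutant GSK343. The longest piece measured 39.5 kb in WT GSK343 and 23.6 kb in mutant GSK343. The Hoxa domain, chromosome 6 from 52204490 to 52326990, spanned 123 kb from the start of Hoxa5 past Evx1, a homeobox gene next to the cluster. Of Hoxa3, whose annotated body reaches past Hoxa5 into the domain, 19.5% lay inside. The domain kept 72.1% in 10 pieces in WT GSK343 and 67.0% in 21 in mutant GSK343. The Hoxd domain, chromosome 2 from 74643512 to 74756878, held Evx2 and 8 Hoxd genes in 113 kb and kept 80.8% in 15 pieces and 67.6% in 30. In the Hoxd domain the longest piece was 40.1 kb in WT GSK343 and 8.12 kb in mutant GSK343.

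Within the clusters single genes ranged from full cover to none. Hoxa7, Hoxa9, Hoxa11, Hoxb13, Hoxc10, Hoxc11, Hoxc12 and Hoxd9 were covered in full in both GSK343 lists. Hoxb4, of which 76.8% lay in a domain, kept 4.33% of that part in WT GSK343 and 0% in mutant GSK343, and Hoxb3 kept 21.0% and 12.9%. Hoxa6 kept 10.5% in WT GSK343 and 59.4% in mutant GSK343. Hoxa5 lay in the domain by only 3.46% of its length and kept 0% there in both. Hoxb2 was covered in full in WT GSK343 and by 88.9% in mutant GSK343, and Hoxd13, at the other end of its cluster, in full and by 40.3%. In mutant DMSO each of the 37 genes was covered by 100% of its domain part.

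Next in width were a 74.8 kb domain on chromosome 15, from 6985997 to 7060809, with no coding gene but the noncoding genes Gm30559 and Gm30663, and a 68.6 kb domain at Nkx2-3, a homeobox gene of gut and spleen development. The first kept 43.8% in 14 pieces in WT GSK343 and 22.3% in 13 pieces in mutant GSK343, where 0% was left at a q-value of at most 0.01. The second kept 45.0% in 9 and 39.4% in 13, and in WT GSK343 its longest piece, of 22.6 kb, lay over Nkx2-3.

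Among the domains of at least 20 kb, those with most left in WT GSK343 were led by developmental factors. The Neurod2 domain kept 84.7% in WT GSK343 and 69.1% in mutant GSK343, the Skor1 domain 83.5% and 84.9%, and the domain of Dlx1 and Dlx2, factors of forebrain interneurons, 83.1% and 71.6%. The domain at Rarg, a retinoic acid receptor gene, kept 81.3% and 54.5%, and that at Foxa1, an endoderm factor, 80.9% and 54.5%. The 5 domains with fewest bases left were those of Otop2, Otop3, Ush1g and Hid1 (11.2% and 15.2%), Msi1, an RNA-binding protein of neural stem cells (11.8% and 17.3%), Hpcal4 and Nt5c1a (14.1% and 15.3%), Sox30 (16.5% and 19.9%) and Ky (17.8% and 6.99%). All 5 were covered by mutant DMSO to 84.4% or more. With a q-value of at most 0.01, Msi1 kept 4.42% in WT GSK343 and 0% in mutant GSK343, the opposite order, and Sox30 6.26% and 8.98%. With a fold of at least 3, Rarg kept 74.4% and 14.0%. The starts available in these domains mostly lay in a piece. In the first group 10 of 10 did in WT GSK343 and 9 of 10 in mutant GSK343, and in the second group 5 of 5 in both lists. Those of the second group were starts of Ky, Nt5c1a, Otop3 and Sox30, and none was available in the Msi1 domain.

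**Figure D4:**
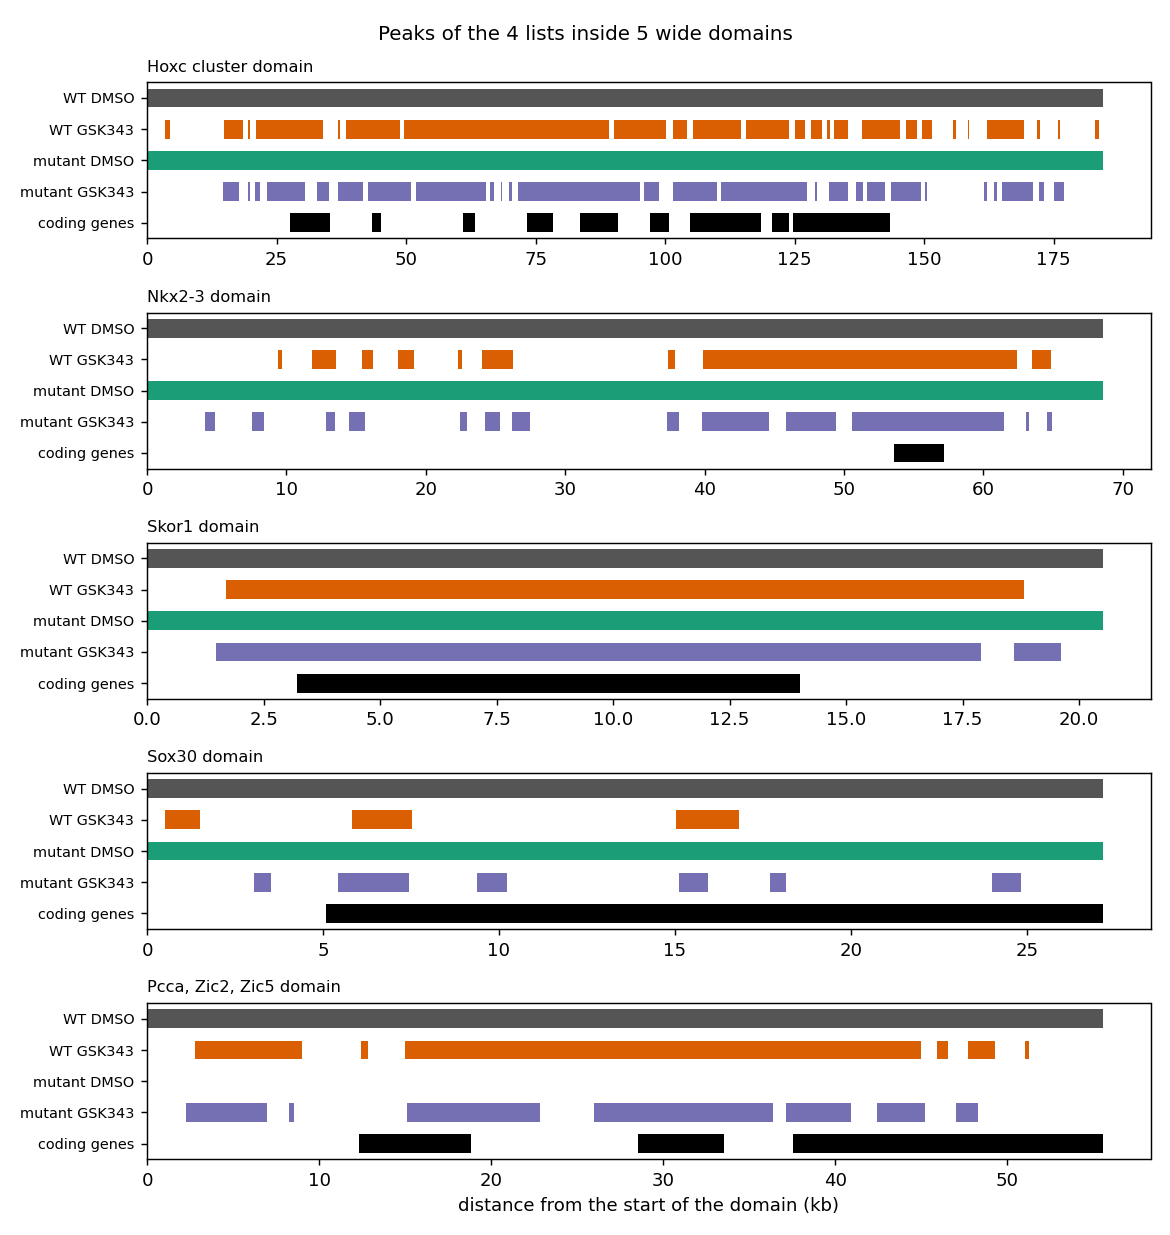
Peaks of the 4 lists, clipped to the domain, and bodies of coding genes (black, clipped likewise) in 5 domains; the x axis is the distance from the start of the domain in kb and differs in length between panels. WT GSK343 left 24 pieces in the Hoxc domain, 9 at Nkx2-3, 1 at Skor1, 3 at Sox30 and 6 at Zic2 and Zic5, where the mutant DMSO list holds no peak.

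Of the 40 miRNA hairpins that lay whole inside a domain (4.35% of 919), 31 lay whole inside a piece in WT GSK343, 24 in mutant GSK343 and 40 in mutant DMSO. All 3 loci of miR-9, a neural miRNA, lay in domains without a coding gene, 35.9 to 41.9 kb wide. Mir9-1 and Mir9-3 stayed in a piece in every list, whereas Mir9-2 did so in WT GSK343 but not in mutant GSK343. The 3 miR-196 loci, at the Hoxa, Hoxb and Hoxc clusters, stayed in a piece in all lists. Mir10a in the Hoxb cluster had no piece in either GSK343 list, and Mir10b in the Hoxd cluster had one in mutant GSK343 only. Mir132 and Mir212 lay side by side in a domain of 11.8 kb with Hic1, a tumour suppressor gene, and each was in a piece in only 1 of the GSK343 lists. Of the 3 hairpins with the miR-7 seed, Mir7-2 and Mir7b lay in domains, and neither was in a WT GSK343 piece. Mir375, of pancreatic islets, and the sensory pair Mir96 and Mir183 stayed in a piece in all 3 lists.

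Less of the domains was left in mutant than in WT cells under GSK343. The share of all domain bases was 7.19 percentage points higher in WT GSK343 than in mutant GSK343, and 888 domains (71.1%) had less left in the mutant list, 352 more and 9 the same. The difference was not tested, since each genotype has 1 list. The lists as a whole differed the same way, with 21.0 Mb in WT GSK343 and 16.8 Mb in mutant GSK343 on chromosomes 1 to 19, and their read depth is unknown. The order of domains was similar, with a Spearman's rho of 0.76 over the 1249 domains, which share the libraries. Of the WT GSK343 piece bases, 67.5% also lay in a mutant GSK343 piece, and of the mutant GSK343 piece bases 80% lay in a WT one. Both lists together kept 31.2% of the domain bases.

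Some domains departed from this order. A domain on chromosome 1 from 128468314, with no annotated gene, kept 62.8% in WT GSK343 and 5.58% in mutant GSK343. The domain at Prss16, a thymic protease gene, kept 72.8% and 19.8%, and that at Gad1, which encodes a GABA-synthesising enzyme, 70.8% and 19.4%. In the other direction, a domain without annotated gene on chromosome 7 from 44472849 kept 24.4% in WT GSK343 and 77.2% in mutant GSK343. Unc13a, a gene of synaptic vesicle release, had a domain with 19.1% and 53.0%, and a domain on chromosome 9 from 107373827 kept 25.9% and 58.6%. The values of the domains from 128468314 and 44472849 came from peaks that stricter thresholds leave out. With peaks of a q-value of at most 0.01, or a fold of at least 3, the first kept 0% in both lists and the second 2.67% in WT GSK343 and 0% in mutant GSK343, the opposite order. At a −log10 p-value limit of 5 both domains kept 0% in both lists. At a q-value of at most 0.01, Prss16 kept 31.4% and 6.63%, Gad1 70.8% and 11.8%, Unc13a 0% and 38.6%, and the chromosome 9 domain 25.9% and 36.9%. Mutant DMSO covered these 6 domains by 92.5% or more.

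**Figure D5:**
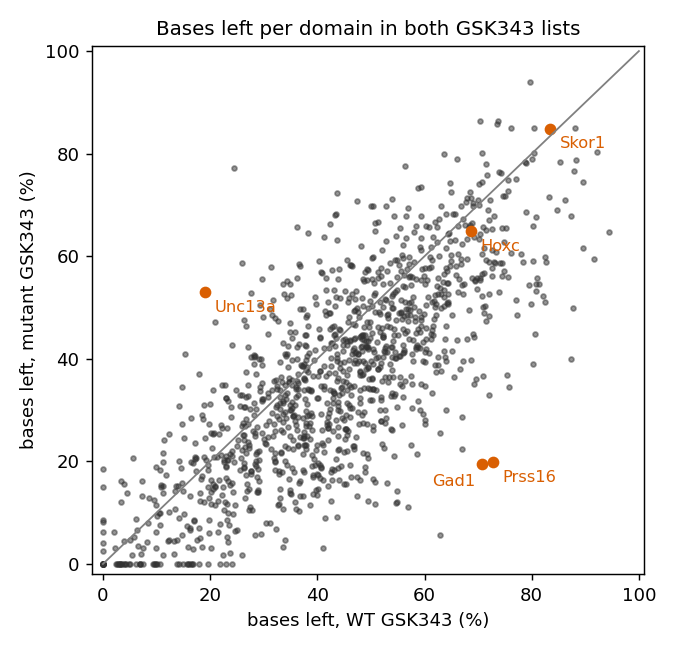
Share of bases left in WT GSK343 (x axis, %) and mutant GSK343 (y axis, %) for each of the 1249 domains (points), with 5 named domains in orange and the line of equal shares in grey. More points lie under the line (888) than over it (352), and Skor1 and Hoxc lie near it while Gad1 and Prss16 lie far under it.

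Without the inhibitor the mutant list covered the domains nearly whole, and mostly with wider peaks. In the 1234 domains with a mutant DMSO peak, the main such peak was wider than the domain in 1092 and narrower in 142. Its median width was 19790 bp against 14120 bp for these domains, and the median ratio was 1.24. Of the mutant DMSO peaks, 61 spanned 2 or 3 domains, joining 123 of them. The mutant DMSO list held 132 Mb in peaks on chromosomes 1 to 19 and 2503 peaks of at least 10000 bp there, of which 3 overlapped no WT DMSO peak. The domains took up 26.0% of the peak bases of the WT DMSO list there and 16.1% of those of the mutant DMSO list. The mutant DMSO list was thus larger outside the domains as well.

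The 15 domains without a mutant DMSO peak all sat where numbers are missing from the running peak numbers of that list. Such a gap in the numbers lies between 0.983% of neighbouring mutant DMSO peaks. The file names say that peaks on a blacklist were removed, and whether this took the 15 peaks was not tested. None of the 16 domains without a WT GSK343 piece and 2 of the 47 without a mutant GSK343 piece sat at missing numbers. Among the 15 were domains at Zic2 and Zic5 (55.5 kb), at H2-T3, a class Ib histocompatibility gene (50.1 kb), at Yap1, an effector of Hippo signalling (40.9 kb), at Rfx4 (17.5 kb), at Gdnf (14.7 kb) and at Pou5f1 (11.1 kb). Under GSK343 these domains did have mutant pieces: the Zic2 domain kept 70.3% in WT GSK343 and 55.7% in mutant GSK343, and the Gdnf domain 52.2% and 54.6%. Without the 15 domains, mutant DMSO covered 98.8% of the domain bases, and the lowest value of a domain was 28.8%.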

How the data were processed

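H3K27me3 ChIP-seq of 16 samples (8 ChIP, 8 input) was available as 4 deposited broad peak lists, 1 per genotype and treatment. The peak names refer to pooled duplicates. The prefix in the mutant lists ends in 1, and whether those lists rest on 1 replicate could not be told. Bowtie2 2.4.2, SAMtools 1.12, MACS2 2.2.7.1, bedtools 2.29.2, deepTools 3.5.1, bcl2fastq and build mm10 (GRCm38) are named, with no role, per the submitters' processing notes. Caller settings are not given in the sources used here. Blacklisted peaks had been removed, per the file names. The authors' fold is a linear ratio of ChIP over background. The deposited −log10 p-value and −log10 q-value of each peak were used only as thresholds in alternatives.

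Peaks were intersected in Python 3.11.15 (pandas 2.3.3, numpy 2.4.6) with a minimum overlap of 1 bp, positions being counted from 1. Results were checked against bedtools 2.31.1, with 6 of 6 comparisons equal, and on simulated lists, with 20 of 20 recovered. The gene table was RefSeq's for GRCm38 and held 49997 genes, and starts, promoters and miRNAs from RefSeq tables of the same build. Families were defined by symbol. No symbol matched the histone family. Named domains were the 5 widest, the 5 of at least 20000 bp with most and with fewest bases left in WT GSK343, 5 without a WT GSK343 piece, the 3 with the largest difference between genotypes each way, the 3 with most pieces, that with most coding genes, and 3 peaks on each side of 10000 bp. Named genes were those of these domains, the Hox genes and up to 2 members of each family. The domains without a mutant DMSO peak, the printed promoters and the miRNAs were chosen after their values were seen. Members and lists were chosen with earlier results of these data known. The planned distance of the strongest piece to a start was not computed. Wilson intervals are at 95% and cover counting only. No test was made because each group has 1 list.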

Additional observations from a re-analysis of the deposited data

Results flagged for a closer look

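Chromosome X was outside the comparisons. It held 20 peaks of at least 10000 bp in the mutant DMSO list, 2 in WT DMSO and 0 in both GSK343 lists, and the larger number in mutant DMSO drew attention to it. On chromosomes 1 to 19 the mutant DMSO list also held more such peaks than the WT DMSO list, 2503 against 1249. The difference was not tested, with 1 list per group, and neither the sex of the mice nor the read depth of the lists was available here.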

How the results depend on the processing

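Under 14 settings, 3 of them added after seeing the data, 18 results gave 162 alternative values. Of these, 93 stayed close to the reported value and 69 moved further. Close meant within a Wilson interval of that value (shares of domain bases or of starts) or within 1.5 times of it (all others). For shares of bases this interval took the 1249 domains as its count, so it is a fixed limit and no measure of spread. Only the genotype difference and the differences in median CG could change sign, and 0 did. A change of order between lists was not counted. Values are given for WT GSK343, then mutant GSK343, and mutant DMSO where named. With domains of at least 5000 bp there were 3998 domains and 2927 coding genes, 39.5% and 33.0% of bases left, 1.70 and 1.74 pieces per domain, 419 and 665 domains without a piece (30 in mutant DMSO) and 83.9% and 78.5% of starts in a piece. At 20000 bp these were 303 domains and 386 genes, 53.4% and 45.3%, 5.04 and 5.87 pieces, 0 and 0 domains without a piece (6 in mutant DMSO), and 93.3% of starts for WT. With WT DMSO peaks closer than 3 kb merged there were 2836 domains and 2435 genes, 24.2% and 19.5% left (87.6% in mutant DMSO, in 2.25 pieces per domain), 440 and 660 domains without a piece, 73.2% and 67.6% of starts, a ratio of bases left near gene ends to outside genes of 3.31 and 3.94, a genotype difference of 4.68 percentage points, and a difference in median CG of 13.0 for the mutant. Requiring a q-value of at most 0.01 in the other lists left 37.2% and 31.1% of bases, 1.54 and 1.65 pieces, 162 and 174 domains without a piece and 83.6% and 78.0% of starts. A −log10 p-value of at least 5 left 33.8% and 29.2% (95.6% in mutant DMSO), 1.29 and 1.46 pieces, 237 and 212 domains without a piece (36 in mutant DMSO), 80.4% and 75.1% of starts and a genotype difference of 4.6 points. A fold of at least 3 left 37.3% and 29.0% (91.9% in mutant DMSO), 1.56 and 1.45 pieces, 159 and 218 domains without a piece (98 in mutant DMSO) and 83.8% and 74.9% of starts. With pieces of at least 500 bp, 40 and 72 domains had none. Only 384 genes lay wholly inside a domain. Without the domains at missing mutant DMSO numbers, mutant DMSO left 98.8% and 0 domains had no piece. Adding chromosome X, a window of 2.5 kb at gene ends, counting a start by 50% of its promoter, counting only bases in a mutant DMSO peak, and leaving out the outer 2 kb moved no value. Of the named domains' values, 107 moved by over 1.5 times and 245 did not. The causes were not tested, beyond the fewer or more peaks each setting counts. No paired analysis was possible because only a single list stands for both samples of a group, and for the same reason no replicate could be left out. The read depth of the lists is unknown here, and its part in the pieces and in the difference between genotypes was not tested.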
